A study of Rattus norvegicus with 10 samples.

Results

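Leukocyte actin and adhesion signalling genes are described here in the rat dentate gyrus 3 weeks after traumatic brain injury (TBI). The 10 genes are *Arpc1b*, *Fermt3*, *Vasp*, *Piezo1*, *Was*, *Coro1a*, *Vav1*, *Dock2*, *Rac2* and *Hcls1*. The list was chosen by the bulk fold changes of *Arpc1b*, *Fermt3*, *Vasp* and *Piezo1*, which are among the leading genes of TBI against sham, so the bulk values of the 10 genes are a description and carry no test. Of the 10 genes, 9 are among the 14166 genes of the bulk table, where *Dock2* was not analysed here, and all 10 are among the 25399 genes of the nucleus matrices, where *Dock2* is listed under an older clone name that RefSeq gives as its synonym.

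The tissue was the dentate gyrus of the injured side from young adult male Sprague Dawley rats of no stated genotype. TBI rats received lateral fluid percussion injury (LFPI), a fluid pulse onto the intact dura through a craniectomy made 3 days before, and sham rats had the same surgery and anesthesia without the pulse. For bulk RNA-seq, 1 library was made from each of 3 sham and 3 TBI rats. Other rats gave the single-nucleus RNA-seq (snRNA-seq) libraries, 2 TBI, 1 sham and 1 naïve, and the sham rat and the naïve rat, which had no surgery, together formed the control group.

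These genes belong to the machinery by which leukocytes, and microglia as the resident leukocytes of the brain, build branched actin and hold on to their surroundings. Signals from receptors switch on Rac GTPases through exchange factors, Rac and Cdc42 release WASP and WAVE proteins from inhibition, and these turn on the Arp2/3 complex, which starts new actin branches. Kindlins together with talin open integrins for adhesion, and mechanosensitive channels pass calcium when the membrane is stretched. Several of these proteins have a version found in most cells and a version found mainly in blood-derived cells, and most of the 10 genes encode the latter.

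Depth was 25121893 to 44649404 estimated counts per bulk library. At a false discovery rate (FDR, Benjamini-Hochberg) of 0.01, edgeR called 0 of the 14166 bulk genes, limma 0 and DESeq2 169. The lowest edgeR FDR in the table was 0.196, while an unadjusted p below 0.05 was reached by 1360 genes. The injury was dated to spring for sham replicates 1 and 2 and TBI replicate 1 and in autumn for the other 3 rats. After filtering, 11285 to 16931 nuclei per rat were left, 55124 in all, and any pair of rats had 46 to 64 cell barcodes in common. All p-values cover only the spread between these few rats.

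Among the bulk libraries, 8 of the 9 genes measured had every TBI library above every sham library, with *Coro1a* as the exception. Over all 14166 genes this held for 11.7%, a background from which nothing is read here because the same contrast chose the genes. Log2 fold changes (Log2FC) of these 8 genes ran from 0.72 to 1.61. The median over the 9 genes was 1.15, and the median over all genes was -0.003.

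Rac activation came first in the order of the pathway. *Vav1*, a Rac exchange factor of blood cells that acts below immune receptors, read 2.44, 2.75 and 2.53 CPM (counts scaled to the same library total) in sham replicates 1, 2 and 3 and 6.96, 11.3 and 5.98 CPM in TBI replicates 1, 2 and 3. The lowest TBI library thus stood well above the highest sham library, and the Log2FC of 1.61 (SE 0.28) was the highest of the 9 genes. *Rac2*, the Rac GTPase of blood cells, read 3.28, 5.43 and 3.48 CPM in sham and 6.51, 13.5 and 7.59 CPM in TBI, with a Log2FC of 1.15 (SE 0.34). Its groups came close to each other, since sham replicate 2 lay just under TBI replicate 1.

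Branched actin followed. *Was*, which encodes the WASP protein that turns on Arp2/3 in blood cells, read 2.63, 2.13 and 1.75 CPM in sham and 4.08, 6.86 and 4.20 CPM in TBI (Log2FC 1.19, SE 0.30). *Arpc1b*, the Arp2/3 subunit isoform prominent in blood cells, read 14.4, 16.5 and 13.3 CPM in sham and 28.3, 43.9 and 35.9 CPM in TBI (Log2FC 1.26, SE 0.18). *Hcls1*, the blood cell counterpart of cortactin that steadies actin branches, read 5.64, 7.01 and 5.47 CPM in sham and 10.0, 19.1 and 10.0 CPM in TBI (Log2FC 1.08, SE 0.29). The groups were apart for all of these genes, and TBI replicate 2 was the highest library for each.

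Filament ends and filament turnover gave the steadiest gene and the exception. *Vasp*, which keeps filament ends growing, read 15.8, 17.6 and 15.7 CPM in sham and 26.5, 27.8 and 29.1 CPM in TBI, a Log2FC of 0.72 (SE 0.11) with an SD of 1.34 CPM among the TBI libraries. *Coro1a*, a coronin that binds filaments and Arp2/3, read 127, 86.5 and 142 CPM in sham and 114, 125 and 114 CPM in TBI. Its sham libraries enclosed all TBI libraries, and the Log2FC was -0.05 (SE 0.18).

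Adhesion and mechanosensing closed the list. *Fermt3*, the kindlin that opens integrins in blood cells, read 6.93, 6.67 and 7.82 CPM in sham and 15.6, 24.5 and 16.9 CPM in TBI (Log2FC 1.38, SE 0.20). *Piezo1*, a stretch-gated cation channel also known from blood vessels, read 7.16, 9.04 and 7.67 CPM in sham and 14.6, 18 and 18.4 CPM in TBI (Log2FC 1.06, SE 0.16). For both genes the TBI libraries lay apart from the sham libraries. TBI replicate 2 was the highest library for 6 of the 9 genes, and without it the median Log2FC was 0.88.

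**Figure D1:**
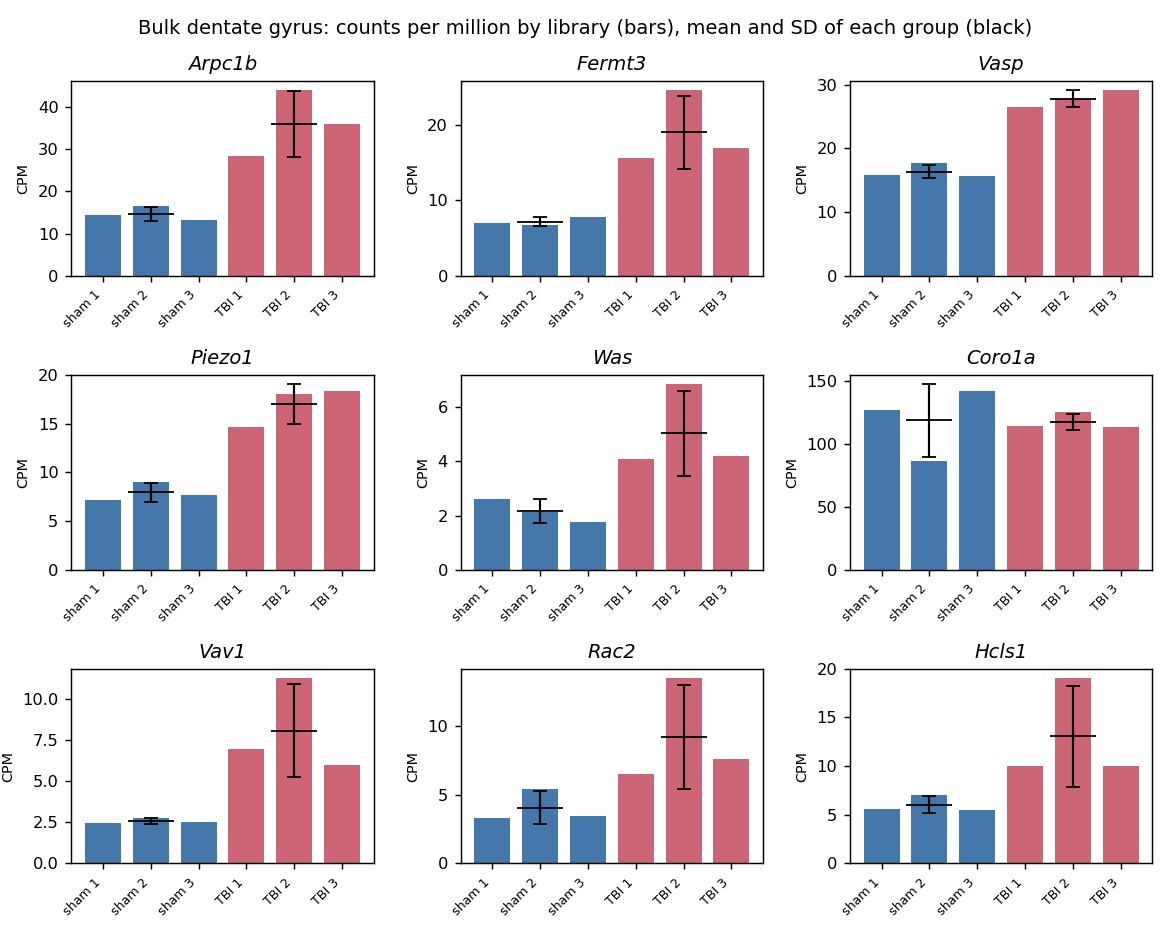
CPM (vertical axis, from 0) of the 9 genes in each bulk library, with sham in blue, TBI in red and the mean and SD of each group (n = 3) in black. In 8 panels every red bar is above every blue bar, and in the *Coro1a* panel the TBI bars (114, 125 and 114 CPM) lie within the sham range (86.5 to 142 CPM).

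Within the spring rats, 1 TBI against 2 sham, the difference in log2 CPM was between 0.62 (*Rac2*) and 1.42 (*Vav1*) for the 8 genes. Within the autumn rats, 2 TBI against 1 sham, it was between 0.86 (*Vasp*) and 1.70 (*Vav1*). *Coro1a* differed by 0.12 in spring and -0.26 in autumn. The direction was thus the same in both periods for the 8 genes, with a single library on one side of each.

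Relatives of these genes from the same families were read in the same fit. Not all are spread alike over the cell classes, since oligodendrocytes held 52.3% of the *Dock5* UMIs in nuclei (mean 170 CPM, against 17.2 CPM in astrocytes). Glutamatergic neurons held 80.5% of the *Piezo2* UMIs and 80.7% of the *Vav3* UMIs, but also 70.4% of those of *Arpc1a*. *Vav3* had a mean of 1001 CPM there and 558 CPM in astrocytes, and *Piezo2* had 163 and 77.2 CPM. Of 16 relatives in the bulk table, 0 passed an FDR of 0.01 by edgeR, and 0 had an unadjusted p under 0.05, against 8.2% of all genes that had such a p and were higher in TBI. DESeq2 and limma also called 0 of them at that FDR. The median Log2FC of the relatives was -0.03.

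*Arpc1a*, the broad version of the Arp2/3 subunit, read 205 ± 34.7 CPM (SD, n = 3) in sham and 200 ± 14.3 CPM in TBI (edgeR Log2FC -0.07, SE 0.14, FDR 0.928). *Rac1*, the Rac of most cells, read 373 CPM in both groups (edgeR Log2FC -0.04, SE 0.09, FDR 0.950). *Fermt2*, the kindlin of most adherent cells, gave an edgeR Log2FC of -0.03 (SE 0.12, FDR 0.969). These relatives were measured at high counts, and their standard errors were below those of most of the leukocyte versions.

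*Wasl*, the broad WASP, gave a Log2FC of -0.14 (SE 0.14, edgeR FDR 0.815), and *Cttn*, which encodes cortactin, gave -0.03 (SE 0.11, FDR 0.964). The Ena/VASP relatives *Enah* and *Evl* gave 0.06 (SE 0.15) and 0.13 (SE 0.11). *Vav2* was the only relative whose TBI libraries all lay above the sham libraries, with a Log2FC of 0.30 (SE 0.17, edgeR FDR 0.657). The values of *Fermt1* (-0.05, SE 0.42), *Coro1b* (0.08, SE 0.12), *Coro1c* (0.04, SE 0.09), *Vav3* (0.08, SE 0.41), *Dock1* (0.09, SE 0.18), *Dock5* (-0.65, SE 0.51) and *Rac3* (-0.06, SE 0.14) also overlapped between the groups. *Piezo2*, the channel of sensory neurons, was too variable to compare, with 10.0 ± 10.3 CPM in sham and 9.98 ± 7.01 CPM in TBI (SD, n = 3).

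**Figure D2:**
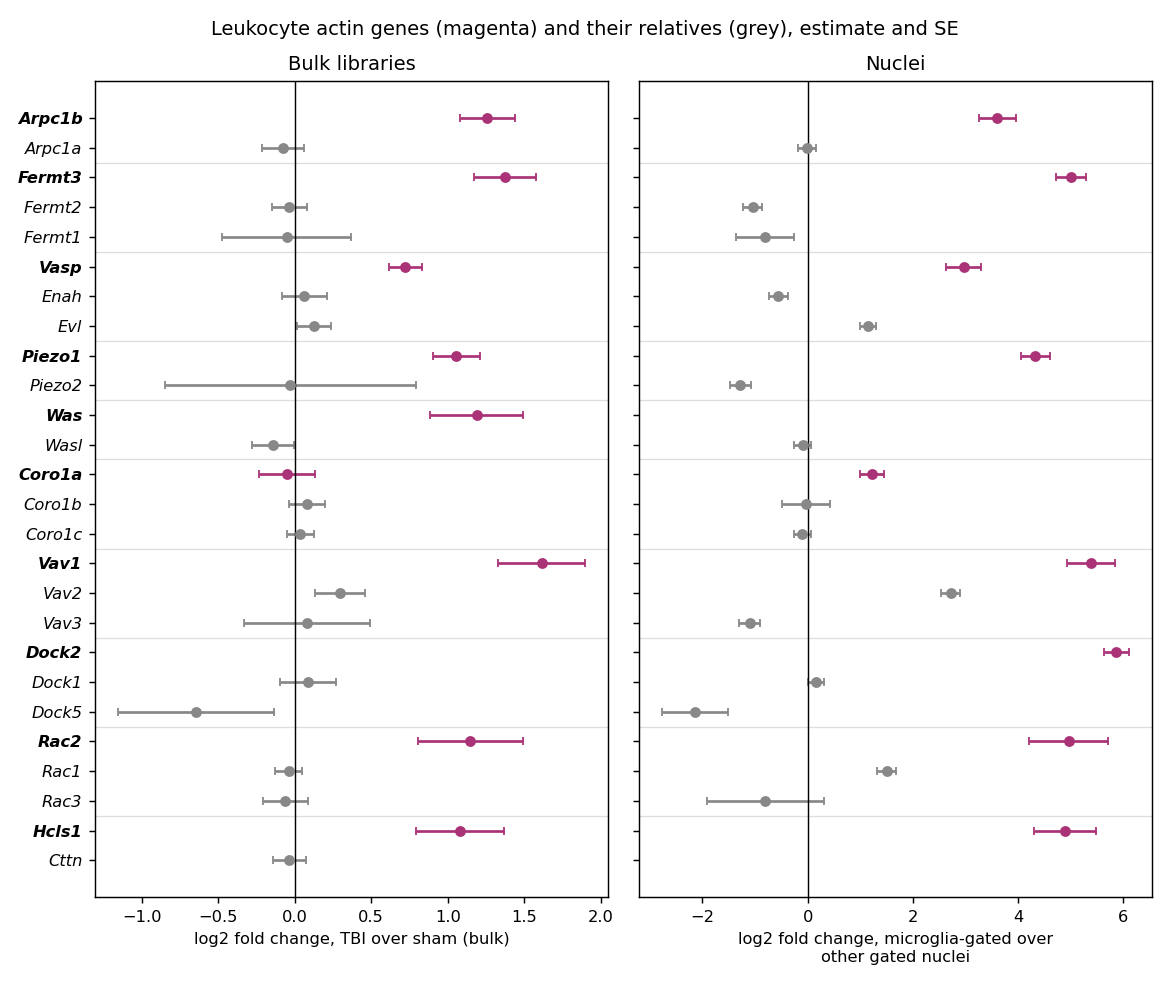
Log2 fold change with SE of the 10 leukocyte genes (magenta, bold) and of their relatives (grey), for TBI over sham in the bulk libraries (left) and for microglia-gated over other gated nuclei (right). On the left *Coro1a* (-0.05) and the 16 relatives lie at 0.30 or below while the other 8 genes lie at 0.72 or above, and on the right the 9 leukocyte genes shown lie at 1.22 or above, with no point for *Was*.

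A wider list of 92 actin and adhesion genes without the 10 above, of which 87 were tested in bulk, gave 0 genes past an FDR of 0.01 by edgeR. In that list 18 genes (20.7%) were higher in TBI with an unadjusted p under 0.05, beside 8.2% of all genes, and 1 gene was lower, *Abi2*. The list's median Log2FC was 0.05. DESeq2 called 5 of the genes, *Capg*, *Fyb1*, *Itgb2*, *Arhgdib* and *Nckap1l*, all higher, beside 169 of all 14166 genes.

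Kinases and adaptors upstream of Vav and Rac held the most such genes, with 6 of 9 at an unadjusted p under 0.05 and a median Log2FC of 0.80. They include *Syk* (edgeR Log2FC 0.89, SE 0.22, FDR 0.237), the kinase below integrins and Fc receptors, and *Lcp2* (0.80, SE 0.24, FDR 0.315), the adaptor that brings Vav1 to the receptor complex. *Grb2*, the most abundant gene of the group and an adaptor of most cells, gave -0.02 (SE 0.11, edgeR FDR 0.978). *Lyn*, the next most abundant, gave 0.67 (SE 0.27, FDR 0.489).

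The WASP and WAVE group was split. *Nckap1l*, the WAVE subunit of blood cells, read 14.4 ± 2.89 CPM in sham and 35.5 ± 14 CPM in TBI (SD, n = 3; edgeR Log2FC 1.27, SE 0.29, FDR 0.208), and *Abi3* gave 1.01 (SE 0.22, FDR 0.203). The broad *Nckap1* gave -0.28 (SE 0.13, edgeR FDR 0.579) and *Cyfip2* gave -0.18 (SE 0.10, FDR 0.633), with all TBI libraries below all sham libraries for both. Of the 14 genes, 3 had all TBI libraries above all sham libraries and 4 had them below, beside 11.7% and 3.06% of all genes.

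The remaining Arp2/3 genes did not follow *Arpc1b*. All 8 gave a Log2FC below 0, with a median of -0.10 and 0 at an unadjusted p under 0.05, and the most abundant, *Arpc2* and *Actr3*, gave -0.02 (SE 0.15, edgeR FDR 0.985) and -0.13 (SE 0.14, FDR 0.837). Among the Ena/VASP partners, *Fyb1*, an adaptor of blood cells, gave 1.58 (SE 0.37, FDR 0.212), and *Pfn1*, which feeds actin to growing ends, gave 0.02 (SE 0.09, FDR 0.976).

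Among the integrin genes, *Itgb2*, the beta chain of leukocyte integrins, gave an edgeR Log2FC of 1.40 (SE 0.35, FDR 0.238) and *Itgal* gave 1.33 (SE 0.44, FDR 0.362). *Itgb1*, the beta chain of most cells, gave 0.44 (SE 0.21, FDR 0.593). In the Rac group, *Arhgdib*, a GTPase inhibitor of blood cells, gave 1.01 (SE 0.21, edgeR FDR 0.196) and its broad relative *Arhgdia* gave 0.05 (SE 0.10, FDR 0.944). The other most abundant genes of the groups, *Coro2b* (-0.18, SE 0.11), *Tmsb4x* (0.10, SE 0.09) and *Cfl1* (-0.11, SE 0.11), had FDRs of at least 0.676 by edgeR.

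Markers of several cell types stood apart between the groups in the same bulk libraries. Of the 10 microglial markers, 9 had all TBI libraries above all sham libraries, their median Log2FC was 0.88, and their summed level was 476 to 493 CPM in sham and 761 to 1264 CPM in TBI. Border macrophage markers gave a median Log2FC of 1.28, with summed levels of 10.6 to 12.2 CPM in sham and 17.4 to 49.0 CPM in TBI, and 4 of 5 had all TBI libraries above all sham libraries. Endothelial markers gave a median of 0.35 with overlapping summed levels, and 1 of 9 had non-overlapping groups. Astrocyte markers gave a median of 0.20, with summed levels of 3317 to 3789 CPM in sham and 4229 to 4839 CPM in TBI, and 6 of 10 had all TBI libraries above all sham libraries. Pericyte markers gave a median of 0.23, and 4 of 10 had an unadjusted p under 0.05. Oligodendrocyte markers gave a median of -0.72, with summed levels of 5445 to 17380 CPM in sham and 5132 to 8064 CPM in TBI. All of them overlapped, and sham replicate 2 was far above the other sham libraries (*Mbp* 2933, 8741 and 3544 CPM). Markers of glutamatergic neurons (median -0.22), GABAergic neurons (-0.03) and oligodendrocyte precursors (-0.17) overlapped too. Some varied widely within a group, as *Prox1* with 106, 25.6 and 16.0 CPM in sham and 76.0, 24.8 and 47.8 CPM in TBI. Of T and NK cell markers 3 of 10 and of B cell markers 0 of 5 were in the bulk table, and the only neutrophil and monocyte marker there, *S100a9*, was highest in a sham library. Fewer or more cells of a type and less or more RNA per cell cannot be told apart in bulk tissue, and the part of these cell types in the differences was not tested.

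Each gene was therefore also set against the mean log2 CPM of the 10 microglial markers in its own library. That mean was 4.6, 4.59 and 4.56 in sham replicates 1, 2 and 3 and 5.21, 5.96 and 5.18 in TBI replicates 1, 2 and 3, a difference of 0.87. Relative to it, the median TBI difference of the 9 genes was 0.27 on the log2 scale. Groups stayed apart for 4 genes, *Vav1* (0.72), *Fermt3* (0.52), *Arpc1b* (0.41) and *Was* (0.32), beside 0.889% of all genes that lay higher in all TBI libraries on this relative scale. Nothing is read from this background either, because the same libraries and contrast chose the genes. *Hcls1* (0.18), *Rac2* (0.27), *Piezo1* (0.23) and *Vasp* (-0.11) overlapped. *Coro1a* lay lower in all TBI libraries (-0.85), as did 70.7% of all genes.

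For snRNA-seq, nuclei were assigned to 8 classes by fixed markers, none of which is one of the 10 genes. A nucleus joined the class with the most distinct markers detected, with at least 2 of them and 1 more than the next class. This gave 1650 microglia-gated nuclei, of which 271 came from the sham rat, 370 from the naïve rat, and 338 and 671 from the TBI rats. Their leading genes were *Ikzf1*, *Inpp5d*, *Slco2b1*, *Cx3cr1*, *Csf1r* and *Ctss*, which the gate used, followed by *C1qa*, which it did not. These nuclei were shallow, with medians of 621 to 794 UMIs, against 1647 to 2652 UMIs over all nuclei. Between 25 and 181 of them per rat had just the minimum of markers.

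The label was checked against other leukocytes. In the microglia-gated nuclei all B cell markers and all neutrophil and monocyte markers in the matrices were at 0 in all 4 rats. *Cd3e*, *Cd3d*, *Cd3g* and *Cd2*, which define T cells, were also at 0 in all 4 rats, and the whole list of 10 T and NK cell markers summed to 0 to 55.8 CPM. Border macrophage markers summed to 9.24 to 57.8 CPM there. The second TBI rat had the highest sums of the T and NK cell and border macrophage lists, on 28 and 29 UMIs. No class of other leukocytes competed in the gate. Microglial markers summed to 4910 to 7603 CPM, but the gate chose the nuclei by them, so this level is no check of the label. Markers of glutamatergic neurons summed to 1505 to 1770 CPM in the same nuclei, against 3243 to 3487 CPM over all nuclei. Those of astrocytes summed to 1351 to 1446 CPM, against 1381 to 1825 CPM. Oligodendrocyte markers summed to 930 to 1174 CPM, against 596 to 1109 CPM, and were higher in the microglia-gated nuclei of every rat. The microglia-gated sums thus also hold RNA of other cell types.

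*Fermt3*, *Vav1*, *Dock2* and *Hcls1* had their highest level in microglia-gated nuclei in each of the 4 rats. *Fermt3* read 80.0 to 118 CPM over the 4 rats in microglia-gated nuclei and 0 to 14.4 CPM in endothelial nuclei. *Dock2*, a Rac activator that leukocytes need to migrate, read 105 to 243 CPM in microglia-gated nuclei and 0 to 3.11 CPM in endothelial nuclei. *Vav1* read 33.9 to 59.8 CPM and 0 to 3.11 CPM in the same classes. The ranges over rats of these genes in microglia-gated nuclei lay above those in neurons, astrocytes and oligodendrocyte lineage nuclei.

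*Arpc1b*, *Vasp* and *Piezo1* formed another pattern, with levels in endothelial nuclei that overlapped or exceeded those in microglia-gated nuclei. *Arpc1b* read 36.9, 59.8, 52.4 and 105 CPM in microglia-gated nuclei of the first and second TBI rat, of the sham rat and of the naïve rat, and 73.1, 168, 84.0 and 181 CPM in endothelial nuclei of the same rats. The endothelial level was the higher one in all 4 rats, at 160% to 281% of the microglial one. In pericyte nuclei *Arpc1b* read 0 to 110 CPM on 13 UMIs, above the endothelial level in the first TBI rat. *Piezo1* read 67.7 to 132 CPM in microglia-gated and 52.9 to 120 CPM in endothelial nuclei, and *Vasp* read 39.3 to 69.7 and 36.5 to 66.5 CPM. For these 2 genes the order of both classes changed between rats. Endothelial nuclei were few, 314 in all, and held 89, 63 and 37 UMIs of *Arpc1b*, *Piezo1* and *Vasp*.

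*Coro1a* was spread over the tissue. Glutamatergic neurons, 62.2% of all nuclei, held 70.2% of its 3146 UMIs, and its level there was 19.4 to 32.0 CPM, beside 43.7 to 94.1 CPM in microglia-gated nuclei. These neurons also held the largest share of the UMIs of *Vasp* (40.8%), *Arpc1b* (38.6%), *Hcls1* (37.9%), *Fermt3* (32.9%) and *Piezo1* (31.1%). Microglia-gated nuclei held the largest share for *Dock2*, *Vav1* and *Was*, and the shares were equal for *Rac2*. The neuronal level of *Coro1a* was 26.1% to 55.0% of the microglial one. For *C1qa*, *C1qb* and *C1qc*, complement genes of microglia that neurons should lack, the same percentage was 0.19% to 2.78%, 0.27% to 3.81% and 0.28% to 5.81%. It differed between rats, so only values up to those of the same rat are read as background. For *Fermt3* it was 1.21% to 3.41%, for *Dock2* 0.29% to 1.82%, and for *Vasp* 4.64% to 12.7%. Within each rat, *Vasp* and *Arpc1b* (2.53% to 12.2%) lay above all 3 complement genes. *Piezo1* did so in all rats but the first TBI rat, and *Hcls1* in the second TBI rat and the sham rat. *Fermt3* lay above the complement genes in the second TBI rat (2.39% against at most 1.55%) and in the naïve rat (1.21% against at most 0.28%), but not in the other rats. *Dock2* lay above them in the naïve rat alone, by little (0.29% against at most 0.28%).

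*Was* and *Rac2* were too sparse for a pattern. They had 92 and 45 UMIs in all nuclei, of which 28 and 14 were in microglia-gated nuclei. The sham rat had 0 UMIs of *Was* there, where a count of 0 allows up to 3 UMIs, and 3 UMIs of *Rac2*.

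**Figure D3:**
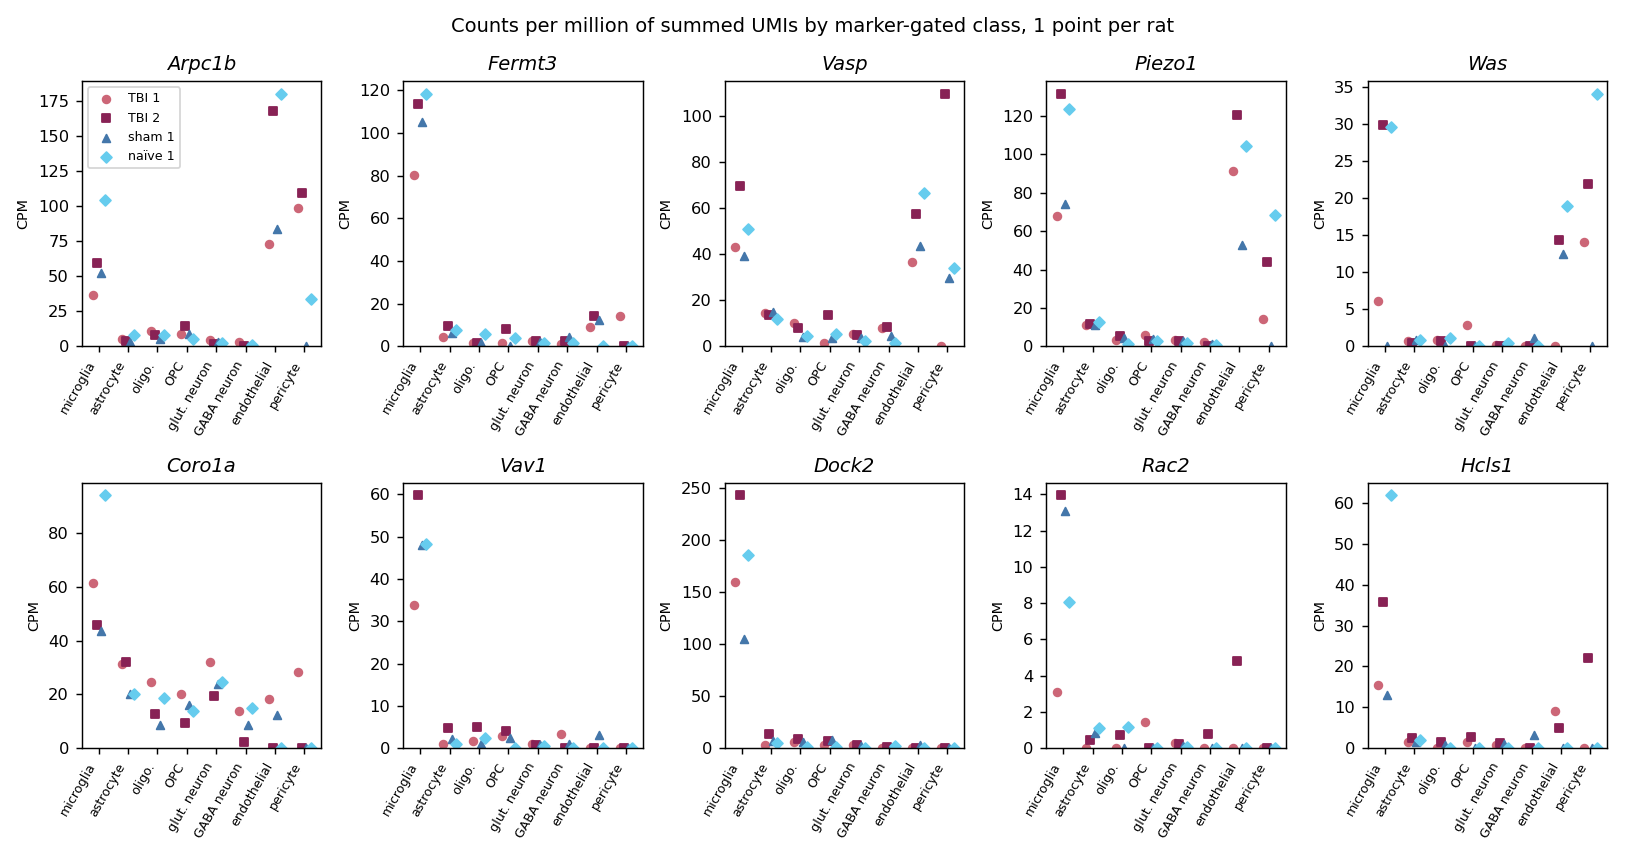
CPM of summed UMIs (vertical axes, from 0) of the 10 genes in 8 marker-gated classes, with 1 point per rat. *Fermt3*, *Vav1* and *Dock2* stand out in microglia-gated nuclei, *Arpc1b* is higher in endothelial (73.1 to 181 CPM) than in microglia-gated nuclei (36.9 to 105 CPM) of each rat, and *Coro1a* is at 19.4 to 32.0 CPM in glutamatergic neurons; pericyte points rest on 93 nuclei.

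Microglia-gated nuclei were then compared with all other gated nuclei together, with the rat as a block, in other rats than those of the bulk libraries. Over all genes tested, 10.6% passed an FDR of 0.01 as higher in microglia-gated nuclei by edgeR. *Dock2* was 58.5-fold higher (Log2FC 5.87, SE 0.24, FDR 7.71e-19) and *Fermt3* 32.3-fold (5.01, SE 0.28, FDR 1.63e-15). *Piezo1* (4.33, SE 0.28, FDR 4.98e-14) was also higher by edgeR. *Rac2* gave 4.96 (SE 0.75, edgeR FDR 3.27e-06) on 14 UMIs in microglia-gated and 28 in other gated nuclei. It read 0.19 to 0.36 CPM in the latter and passed the filter through the microglia-gated sums, so its call is not read. *Vav1* (0.56 to 1.44 CPM) and *Hcls1* (0.37 to 1.48 CPM) were also low in the other gated nuclei, so the filter leaned on the microglia-gated sums for them too.

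*Arpc1b* (edgeR Log2FC 3.61, SE 0.35, FDR 5.92e-10) and *Vasp* (2.97, SE 0.33, FDR 1.12e-08) followed with smaller differences. *Coro1a* was 2.33-fold higher (edgeR Log2FC 1.22, SE 0.23, FDR 1.05e-04), the smallest difference among the 9 genes that passed the filter. *Was* did not pass the filter on low counts. Without that filter 7.37% of all genes were called as higher, and all 10 genes were among them, *Was* with a Log2FC of 4.90 (SE 0.66, edgeR FDR 2.72e-12). FDRs of this fit cannot be set beside the filtered ones, since that of *Vasp* became 1.37e-16 by edgeR. *Was* rested on 28 UMIs in microglia-gated nuclei, with 0 in the sham rat.

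*Arpc1a* (edgeR Log2FC -0.01, SE 0.17, FDR 0.972), *Wasl* (-0.09, SE 0.16, FDR 0.735) and *Coro1c* (-0.10, SE 0.16, FDR 0.686) gave no call. *Fermt2* (-1.05, SE 0.17, FDR 1.48e-05), *Piezo2* (-1.28, SE 0.20, FDR 3.70e-06), *Vav3* (-1.10, SE 0.20, FDR 4.74e-05) and *Dock5* (-2.13, SE 0.63, FDR 0.00881) were lower in microglia-gated nuclei by edgeR. *Vav2* (2.73, SE 0.18, FDR 8.46e-14), *Rac1* (1.5, SE 0.18, FDR 8.13e-08) and *Evl* (1.15, SE 0.15, FDR 2.53e-07) were higher. Of 15 relatives tested, 3 were thus higher and 4 lower, beside 10.6% and 11.4% of all genes.

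Of the wider list, 84 genes were tested and 41 were higher and 10 lower in microglia-gated nuclei at an FDR of 0.01 by edgeR, beside 10.6% and 11.4% of all genes. All 9 kinases and adaptors were among those higher, with *Lcp2* at a Log2FC of 5.81 (SE 0.21, FDR 7.98e-20). Some genes, such as *Btk* (0.50 to 1.57 CPM) and *Fgr* (0.50 to 1.12 CPM), were low in the other gated nuclei. They passed the filter through the microglia-gated sums, so their calls are not read. The WAVE genes were split here too, with *Nckap1l* higher (5.99, SE 0.22, FDR 1.02e-19) and *Nckap1* (-0.78, SE 0.18, FDR 8.63e-04) and *Cyfip2* (-1.11, SE 0.18, FDR 7.43e-06) lower by edgeR.

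The nucleus and bulk values of this list were set side by side. Of 40 listed genes higher in microglia-gated nuclei and present in bulk, 16 (40.0%) were higher in TBI with an unadjusted p under 0.05, and their median bulk Log2FC was 0.37. Of 33 genes without a call 1 was, and of 10 genes lower in microglia-gated nuclei 0 were. Genes outside the list and the marker lists gave 34.7% of 1255, 4.68% of 8894 and 1.9% of 1420 for the same classes. Across the 83 listed genes, which share the same libraries and are no replicates, Pearson's correlation of both Log2FCs was 0.80 and Spearman's 0.67, beside 0.39 and 0.27 across 11645 other genes, as a description.

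**Figure D4:**
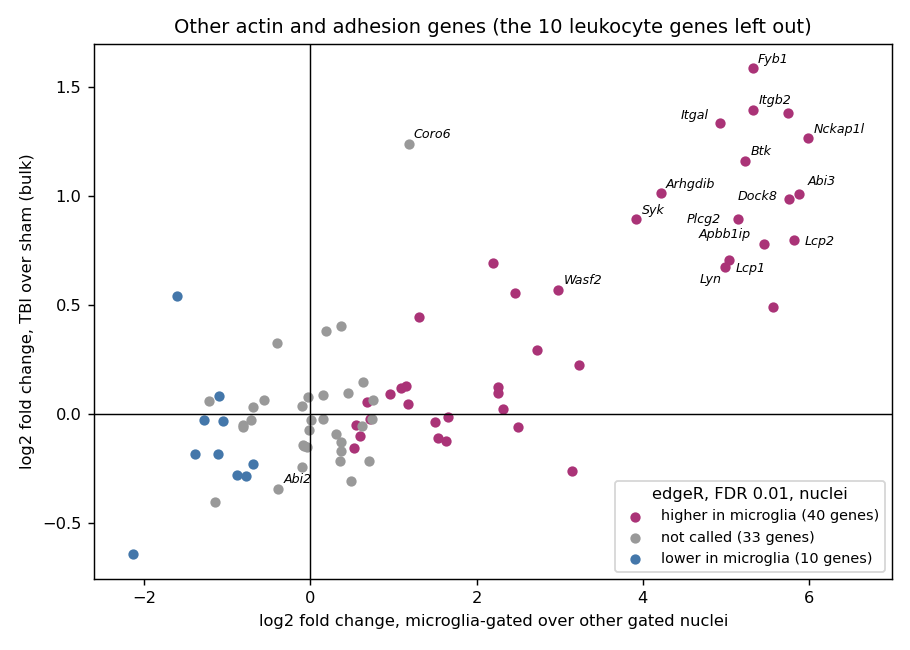
Log2 fold change of 83 other actin and adhesion genes in microglia-gated over other gated nuclei (horizontal axis) and in TBI over sham bulk libraries (vertical axis), coloured by the nucleus call at an FDR of 0.01 with names beside genes whose unadjusted bulk p was under 0.05, 1 of them left unnamed. The named magenta genes lie at the right, and *Abi2* is the named gene below 0.

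Between TBI and control, the microglia-gated nuclei themselves showed no gene past an FDR of 0.01 by edgeR among 6882 tested, with 129 at an unadjusted p under 0.05 and 0 called by DESeq2. The ranges of TBI and control overlapped for all 10 genes, while over all genes tested both TBI rats lay above both controls for 15.3% and below them for 12%. None of the 9 leukocyte genes that passed the filter had an unadjusted p under 0.05, which 0.828% of all genes had with a higher level in TBI. *Arpc1b* gave a Log2FC of -0.74 (SE 0.46), *Fermt3* -0.23 (SE 0.34), *Vasp* 0.29 (SE 0.44) and *Piezo1* -0.03 (SE 0.42), each with an edgeR FDR of 1. *Vav1* read 33.9 and 59.8 CPM in the TBI rats, 48.0 CPM in the sham and 48.4 CPM in the naïve rat (Log2FC -0.04, SE 0.46).

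*Dock2* read 160 and 243 CPM in the TBI rats, 105 CPM in the sham and 185 CPM in the naïve rat, a Log2FC of 0.42 (SE 0.37, edgeR FDR 1). The naïve rat was the highest library for *Arpc1b* (105 CPM), *Fermt3* (118 CPM), *Coro1a* (94.1 CPM) and *Hcls1* (61.8 CPM). With 1 rat left out, *Dock2* lay between 0.09 and 0.92 and *Arpc1b* between -1.15 and -0.12. Without the naïve rat, *Hcls1* moved from -0.62 to 0.97 and *Coro1a* from -0.46 to 0.23, both with no call. *Rac2*, with 1 and 7 UMIs in the TBI rats and 3 in each control, did not pass the filter. Standard errors of the genes tested ran from 0.34 to 1.08, and a p that misses the threshold does not show that the levels were equal.

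Summed over all nuclei of the same rats, every one of the 10 genes had a Log2FC above 0, with a median of 0.46, beside a median of -0.01 over all 15959 genes tested. These values depended on single rats. Without TBI replicate 2, *Hcls1* gave 0.004, *Fermt3* 0.07, *Piezo1* 0.08, *Vav1* 0.31 and *Dock2* 0.49, while *Was*, *Coro1a* and *Rac2* lay below 0 with a rat left out. Both TBI rats lay above both controls for 7 genes, beside 23.8% of all genes, and below them for 0, beside 9.85%. An unadjusted p under 0.05 with a higher level in TBI was reached by 1 gene, *Dock2*, beside 2.09% of all genes. No gene of the table passed an FDR of 0.01 by edgeR, with 549 at an unadjusted p under 0.05 and 1 called by DESeq2, and none of the 10 genes was called by either.

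*Dock2* read 5.29 and 10.9 CPM in the TBI rats, 3.74 CPM in the sham and 3.36 CPM in the naïve rat (edgeR Log2FC 1.12, SE 0.42, FDR 0.982). *Vav1* gave 0.79 (SE 0.48), *Hcls1* 0.71 (SE 0.51), *Vasp* 0.55 (SE 0.31) and *Fermt3* 0.50 (SE 0.38). *Was* (0.05, SE 0.61), *Coro1a* (0.09, SE 0.25) and *Rac2* (0.42, SE 0.63) overlapped between the groups. TBI replicate 2 was the highest library for 9 of the 10 genes, all but *Coro1a*, for which it was the lowest.

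The share of microglia-gated nuclei was 1.60% in the sham rat, 3.28% in the naïve rat, and 2.70% and 4.66% in the TBI rats (exact permutation test, two-sided, p = 0.667, where 2 against 2 cannot go below 0.333). Microglial markers gave a median Log2FC of 0.53 in the same sums, oligodendrocyte markers 0.61 and astrocyte markers -0.40. The part of these classes in the sums was not tested.

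**Figure D5:**
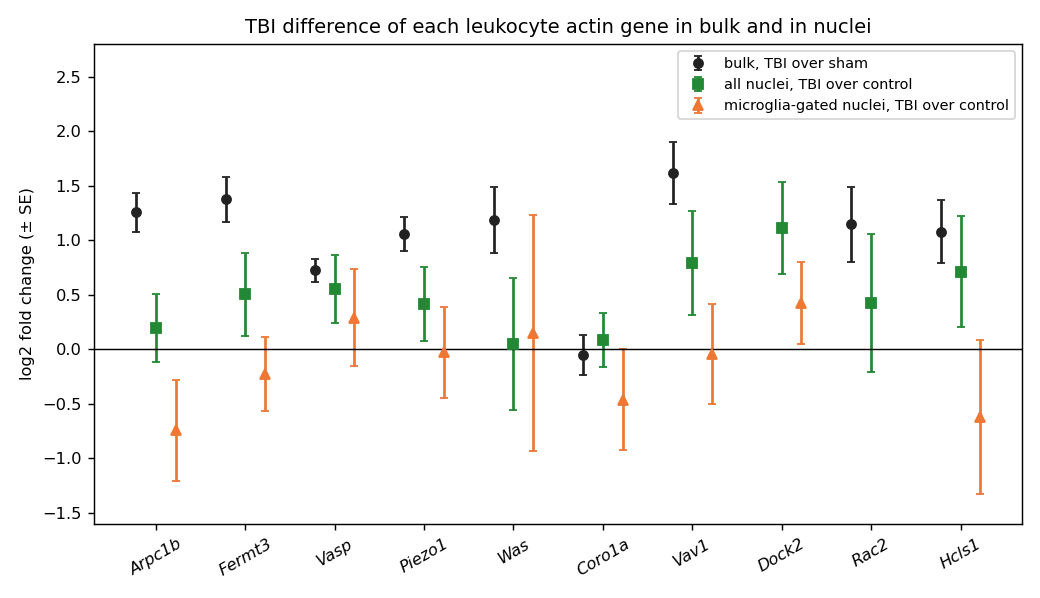
Log2 fold change with SE of each of the 10 genes for TBI over sham in bulk (black), for TBI over control in all nuclei (green) and in microglia-gated nuclei (orange). Black points lie at 0.72 to 1.61 except for *Coro1a* (-0.05), green points all lie above 0, and orange points lie between -0.74 and 0.42, with no bulk point for *Dock2* and no orange point for *Rac2*.

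Promoter windows from 250 bases before to 50 after the start were taken from RefSeq (assembly GRCr8, a later build than the Rnor_6.0 of the deposited files) for 8 of the 10 genes. They were searched on both strands for GAGGAA, a core bound by PU.1 and other ETS factors of blood cells, for TGTGGT, a RUNX core, and for the IRF core. GAGGAA was found in 4 of 8 windows and in 27.6% of all 33469 windows, TGTGGT in 3 of 8 and in 17.3%, and the IRF core in 0 of 8 and in 3.92%. The sequences below run from 130 bases before to 10 after the start of the 5 genes with a match, shown because they hold these letters, with matches in capitals.
Arpc1b, chr12:14609479-14609618, minus strand: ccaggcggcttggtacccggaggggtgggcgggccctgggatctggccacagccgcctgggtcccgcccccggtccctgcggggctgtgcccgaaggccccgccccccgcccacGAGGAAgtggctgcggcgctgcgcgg
Fermt3, chr1:213636786-213636925, minus strand: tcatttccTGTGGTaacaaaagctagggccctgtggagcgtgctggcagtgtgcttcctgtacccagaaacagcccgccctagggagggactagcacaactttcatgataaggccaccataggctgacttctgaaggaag
Was, chrX:17076927-17077066, plus strand: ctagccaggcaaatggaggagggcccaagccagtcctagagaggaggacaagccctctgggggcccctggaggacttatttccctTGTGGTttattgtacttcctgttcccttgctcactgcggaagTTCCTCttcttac
Vav1, chr9:2248825-2248964, plus strand: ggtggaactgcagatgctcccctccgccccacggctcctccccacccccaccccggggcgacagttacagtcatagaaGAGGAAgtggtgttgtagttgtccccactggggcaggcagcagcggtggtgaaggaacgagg
Dock2, chr10:19748960-19749099, minus strand: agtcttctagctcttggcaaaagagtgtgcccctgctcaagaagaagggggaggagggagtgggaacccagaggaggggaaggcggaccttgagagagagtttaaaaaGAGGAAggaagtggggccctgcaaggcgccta

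In *Arpc1b*, *Vav1* and *Dock2* the printed GAGGAA begins 16, 52 and 22 bases before the start. In *Was* the match is on the other strand, where it reads TTCCTC, and lies across the start. *Dock2* holds 1 more GAGGAA and 1 TGTGGT farther upstream. *Coro1a*, *Vasp* and *Hcls1* had no match to these letters in the window, and *Piezo1* and *Rac2* had no window in the table.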

How the data were processed

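Dentate gyrus of 3 sham and 3 TBI rats was used for bulk RNA-seq and that of 2 TBI, 1 sham and 1 naïve rat for snRNA-seq. The authors deposited bulk estimated counts of 31715 transcripts from kallisto, not normalized and not all whole. A second bulk table that the authors deposited gives log2 CPM for 14166 genes, left after their filters on annotation, abundance and variance. Whole gene counts were recovered from that log2 table by inverting its formula and rounding, in place of transcript sums, since no mapping of every transcript to its gene was at hand. For 8 of the 9 genes the gene value equals a single transcript within 0.001. CPM in the text are these counts scaled to the library total, without TMM factors. The submitters' processing notes name Cell Ranger, Seurat, DESeq2 and Rnor_6.0. For nuclei the authors deposited UMI counts per rat.

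Nuclei were kept with at least 500 UMIs, 300 features and a log10 of genes per UMI of 0.8, with at most 5% mitochondrial and 2% ribosomal UMIs. Doublets were kept, and no caller was run. Entries stored as 0 (1.63% to 27.4% of a matrix) were read as 0. Counts were tested with edgeR 4.0.16 (quasi-likelihood, TMM, Benjamini-Hochberg adjustment over all genes tested), with DESeq2 1.42.0 and limma 3.58.1 as alternatives, in R 4.3.3. SEs were derived from the Log2FC and its F value. In bulk all deposited genes were tested, and for nuclei filterByExpr was applied to sums per rat. Of these steps, the edgeR fits and the bulk DESeq2 fit were also run on simulated counts with the same dispersion for all genes. The marker gate, limma, DESeq2 on nuclei and the recovery of counts were not simulated. The remaining steps ran in Python 3.11.15 (scipy 1.17.1), with figures by matplotlib 3.10.9.

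The 10 genes, the gene lists and the markers were chosen with earlier results of these data known, and the thresholds of the marker gate were not fixed in advance. Named genes are the 10 genes, 16 relatives, the 2 most abundant genes of each list group, genes of a list past the FDR (none by edgeR), and the 5 genes most alike over classes. The remaining genes of the lists were named after their values were seen, and 1 listed gene is not reported by name here. Libraries are separate rats. Limits from a count of 0 use 3 counts and cover counting error only. Depth was 25121893 to 44649404 estimated counts per bulk library and 26086141 to 35293678 UMIs per nucleus library. The alternatives were other tests, scalings and filters, each library left out, a replicate block, the injury period, a stricter gate and 1000 UMIs per nucleus.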

Additional observations from a re-analysis of the deposited data

How the results depend on the processing

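The 8 bulk genes other than Coro1a kept a positive Log2FC in every alternative run. Their median with Coro1a, 1.15, was between 0.88 (without TBI replicate 2) and 1.32 (without TBI replicate 1) when single libraries were left out. At an FDR of 0.01 the bulk comparison called 169 genes with DESeq2 and 1 with the replicate block, against 0 by edgeR, and 0 with any library left out. The period and condition interaction called 0 genes, with 100 at an unadjusted p under 0.05. At an unadjusted p under 0.05, edgeR called 906 genes with the injury period as a covariate, and 870 (without sham replicate 3; 879 without TBI replicate 3) to 1871 with a library left out, against 1360. Of the wider list, DESeq2 called 5 genes. Genes of that list lower at an unadjusted p under 0.05 numbered 5 (DESeq2), 2 (DESeq2 size factors), 2 (replicate block), 0 (limma), 0 (injury period) and 0 to 4 with a library left out, against 1. Same-numbered sham and TBI libraries had correlations of their deviations of 0.35, 0.17 and -0.03, so the numbers were not taken as pairs. The block changed no other count of calls by over 1.5 times. For nuclei, no paired analysis was possible because the groups share no more than 1 replicate number.

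Relatives near 0 changed sign without a call. With limma Fermt2 gave 0.007, Fermt1 0.037, Piezo2 0.134, Rac1 0.002 and Cttn 0.006. Piezo2 gave 0.10 with the replicate block and 0.46 with the injury period. With libraries left out the ranges were -0.188 to 0.042 (Arpc1a), -0.1 to 0.064 (Fermt2), -0.36 to 0.18 (Fermt1), -0.059 to 0.161 (Enah), -0.63 to 1.25 (Piezo2), -0.042 to 0.141 (Coro1b), -0.014 to 0.081 (Coro1c), -0.27 to 0.59 (Vav3), -0.032 to 0.324 (Dock1), -0.98 to 0.22 (Dock5), -0.089 to 0.004 (Rac1), -0.171 to 0.064 (Rac3) and -0.109 to 0.011 (Cttn).

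For nuclei, between TBI and control no alternative called any of the 10 genes. In microglia-gated nuclei 2 genes of the table were called without the filter and 0 to 7 with a rat left out (7 without the sham rat). There Piezo1 gave 0.016 without the filter and Vav1 0.094 with the stricter gate. With a rat left out the ranges were -0.60 to 0.42 (Piezo1), -1.42 to 5.78 (Was), -0.86 to 0.23 (Coro1a), -1.39 to 0.97 (Hcls1), -0.54 to 0.24 (Vav1), -0.12 to 0.54 (Vasp), 0.089 to 0.917 (Dock2), -1.146 to -0.121 (Arpc1b) and -0.516 to -0.044 (Fermt3). In all nuclei DESeq2 called 1 gene, and 0 to 28 were called with a rat left out (15 without TBI replicate 1, 28 without TBI replicate 2). Was gave -0.41 with 1000 UMIs, and with a rat left out the ranges were -0.78 to 0.60 (Was), -0.25 to 0.35 (Coro1a), -0.36 to 0.97 (Rac2), and, all above 0, 0.066 to 0.843 (Fermt3), 0.004 to 1.197 (Hcls1), 0.075 to 0.692 (Piezo1), 0.309 to 1.202 (Vav1), 0.49 to 1.557 (Dock2), 0.375 to 0.762 (Vasp) and 0.09 to 0.314 (Arpc1b). The cause was not tested for any of these. As higher in microglia-gated than in other gated nuclei, 9 of the 10 genes were called in each alternative run, beside 10.6% of all genes in the main run. With a rat left out, 2177 to 2909 genes were called in all, higher or lower. Without the filter all 10 genes were called, beside 7.37% of all genes. Rac2, Vav1 and Hcls1 passed the filter through the microglia-gated sums, so their calls with it are not read. Depth limits the nuclei, where single genes rest on few UMIs.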

Other observations

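The genes whose level over the 8 gated classes in 4 rats (32 points, which share libraries) was most like the mean log2 CPM of the 10 genes were AABR07051515.1 (Pearson's r 0.954), Tmem176a (0.942), Lrrk1 (0.935), Map4k1 (0.934) and Ifngr1 (0.932), out of 14192 genes compared. Among the 10 genes themselves, Fermt3 (0.864), Hcls1 (0.850) and Piezo1 (0.820) were most like the mean of the others, and Coro1a (0.363) was least like it.

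A few listed genes stood outside the main pattern of the wider list. Capg, an actin capping protein of macrophages, had the highest bulk Log2FC of the list, with 4.58 ± 1.73 CPM in sham and 17.0 ± 7.03 CPM in TBI (SD, n = 3; edgeR Log2FC 1.87, SE 0.38, FDR 0.196). Coro6 was higher in bulk with an unadjusted p under 0.05 (edgeR Log2FC 1.24, SE 0.49, FDR 0.479) and had overlapping groups, with 7.62 ± 1.15 CPM in sham and 18.5 ± 13.8 CPM in TBI. In nuclei Capg had 3 UMIs in microglia-gated and 52 in other gated nuclei and did not pass the filter. Elmo1, the partner of Dock2, was higher in microglia-gated nuclei (edgeR Log2FC 3.15, SE 0.19, FDR 8.81e-15) but not in bulk TBI libraries (edgeR Log2FC -0.26, SE 0.25, FDR 0.818). These genes were named after their values were seen.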
